A study of Mus musculus with 4 samples.

Results

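The eye-field transcription factor genes Rax, Pax6, Six3, Six6 and Lhx2 were described in GLORI maps of N6-methyladenosine (m6A) from mouse retinal organoids. The members were picked out by gene name and are 5 of 20001 genes with a listed site. They held 630 of the 1076788 positions listed in any library. The libraries were made from polyA RNA of day 6 organoids of an Rx:GFP line, a reporter line for retinal cells. The degradation tag FKBP12F36V-HA sits at the C-terminus of the Mettl3 protein, encoded at the gene's own locus. METTL3 carries the catalytic activity of the m6A writer complex. The compound dTAG13 recruits proteins bearing the tag to the cell's degradation machinery. The untreated group (0 h, no dTAG13) and the dTAG13 group (125 nM for 8 h) had 2 libraries each. All 4 libraries carry the tag and come from organoids grown with the additive AGN, as the labels call it, so there is no untagged control, and the labels do not say whether the line is 1 clone or whether the replicates were separate cultures. The p-values below therefore measure the spread between these libraries only. The genotype text names a different Mettl gene in each sample, whereas the growth protocol names Mettl3 for all, and METTL3 protein was not measured here.

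The eye field is the region of the anterior neural plate from which both eyes form, and its cells are defined by a set of transcription factors that maintain one another's expression. Rax is a homeobox factor needed for eye formation from its start, and Pax6 combines a paired domain with a homeodomain and is used in eye development across animals. Six3 and Six6 are sine oculis-related homeobox factors of the forebrain and eye, and Lhx2 is a LIM homeobox factor required for the optic vesicle to become an optic cup. In mRNA, m6A is placed by the METTL3 complex during transcription, mostly in last exons near the stop codon, and affects among other things how long a transcript persists. In GLORI, unmethylated adenosine is deaminated and read as G, while m6A is still read as A. A site's level is accordingly read as A over A plus G reads.

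A site table lists called positions only, and in all 4 libraries the lowest listed values were 15 reads, 5 A reads and a level of 10%. The median number of reads per listed site was 75 to 91 per library, and listed sites held 30102136 to 54905380 reads in total. All 8 retinal progenitor markers were listed in every library. Summed over these markers, gene coverage reached 4089 and 5035 before and 2715 and 3939 after dTAG13. Markers of other cells were also listed: 4 of 4 pluripotent cell markers, with a summed coverage of 392 and 452 without and 375 and 422 with dTAG13, and 4 of 4 of the pigment epithelium, at 320 and 334 against 254 and 345. For 3 of 4 early retinal neuron markers it was 293 and 301 against 195 and 283, and for 3 of 4 telencephalon markers 508 and 593 against 432 and 635. Of 4 mesendoderm markers 2 were listed, at 26.0 to 89.7, and 4 of 4 neural crest markers at 94.3 to 135. These counts take in a marker listed in any library. All 4 libraries listed 4 pluripotent, 3 pigment epithelium, 2 early neuron, 2 telencephalon, 1 mesendoderm and 1 neural crest markers. Apart from the pluripotent set, the sums therefore add different genes in different libraries. The markers T, Mixl1, Tbr1 and Pou4f2 were listed in no library. Whether these cells had a part in the results was not tested.

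Along each gene the listed sites fell into stretches parted by gaps of over 500 bases. Rax, on the minus strand, had 67 listed positions between chr18:66067770 and chr18:66072140 in 2 stretches. Pax6 had 167 positions between chr2:105506096 and chr2:105528714 in 9 stretches, and Lhx2 had 132 between chr2:38229581 and chr2:38259730 in 6. Six3 had 95 positions between chr17:85921093 and chr17:85933222 in 3 stretches, 1 of them a single position, and Six6 had 169 between chr12:72986738 and chr12:72991645 in 2. These 4 genes lie on the plus strand. The submitters' processing notes name mm10, yet 0 of the 630 positions lay inside the GRCm38 interval of their gene, and 2 contig names in the tables exist in GRCm39 and not in GRCm38. Positions are therefore given as listed, and exons, UTRs and the bases around a site were not assigned. Over the Six3 span the minus strand also held 7 and 12 sites of the antisense gene Six3os1 without dTAG13 and 18 and 7 with it.

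**Figure D1:**
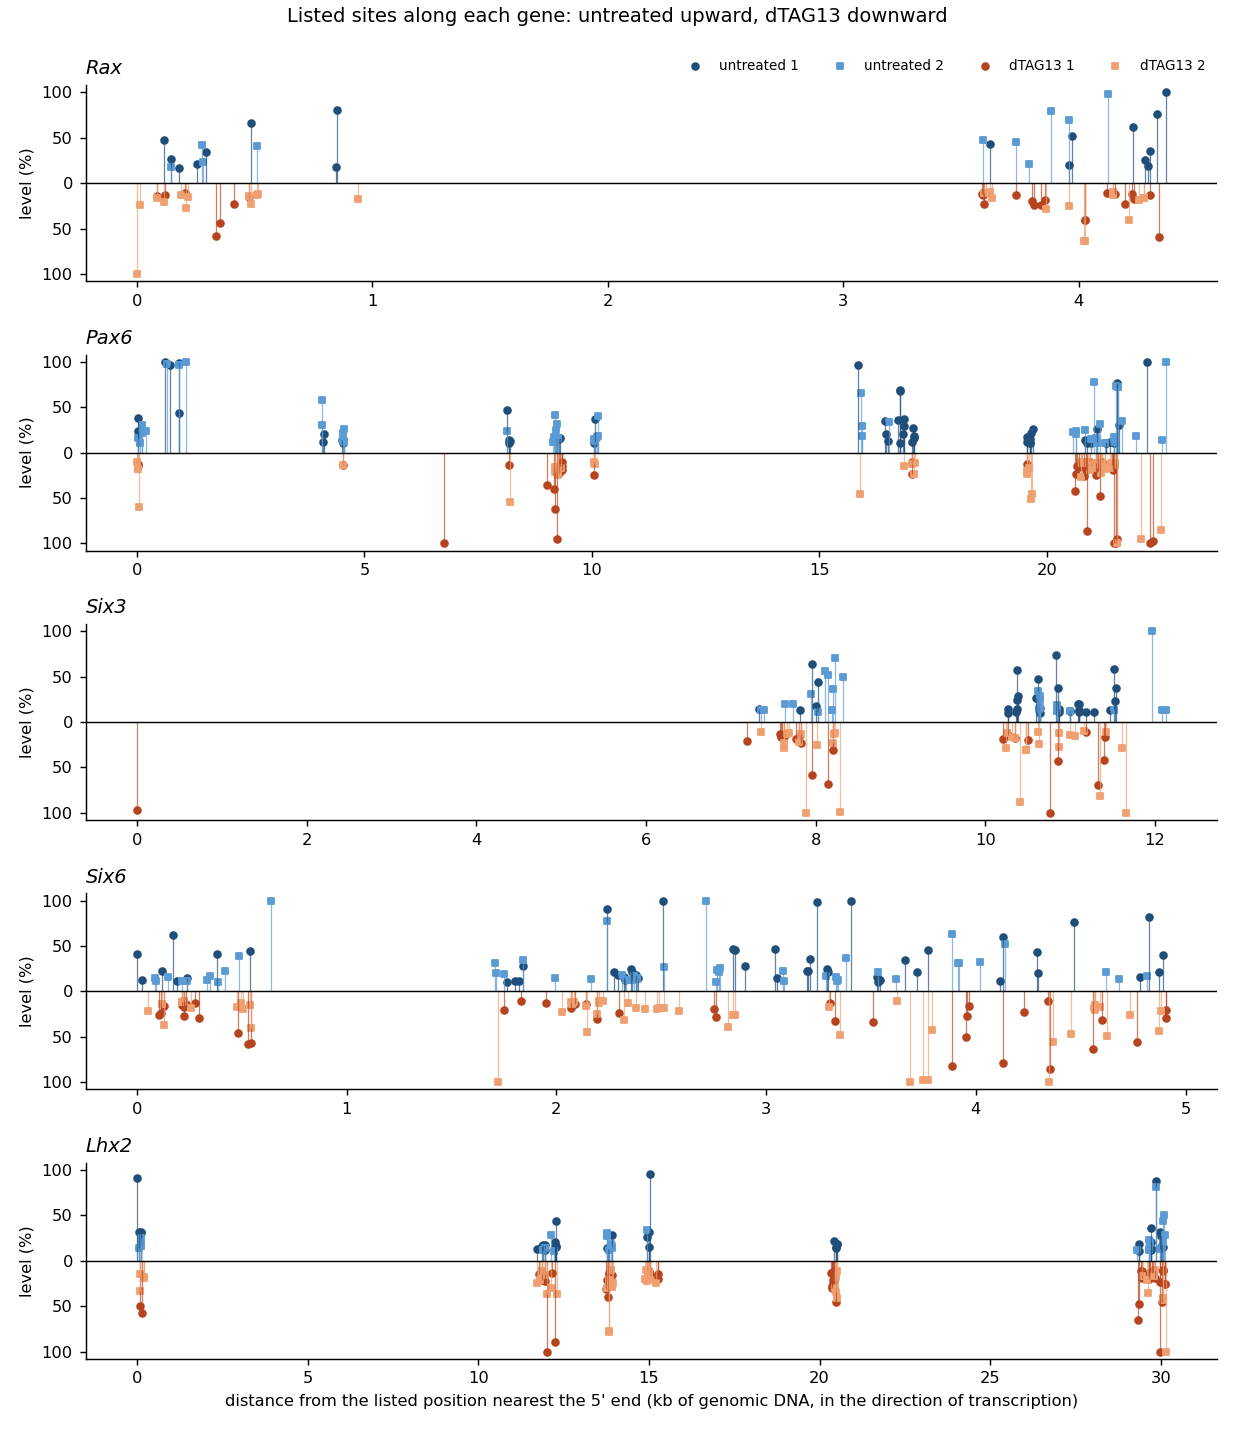
Listed sites of each gene. The horizontal axis is the distance in kb from the listed position nearest the 5′ end, and the vertical axis is the level in percent, upward for the 2 untreated libraries and downward for the 2 dTAG13 libraries. Sites lie in stretches, such as the 2 of Rax and the 6 of Lhx2, and most positions are marked in 1 library only.

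The first comparison asked whether fewer sites were listed in these genes after dTAG13. Their listed sites summed to 192 and 162 without dTAG13 and to 172 and 196 with it. The groups overlapped, and their means of 177 ± 21.2 and 184 ± 16.97 (SD, n = 2 in either group) lay closer together than replicates did. An exact permutation test, two-sided, returned p = 0.667, and the smallest p that 2 against 2 libraries allow is 0.3333. Over all genes the sums were 260741 and 272174 without and 178739 and 201935 with dTAG13, a ratio of group means of 0.714 against 1.04 for the 5 genes. These counts were not scaled for depth, and the part of depth in them was not tested. Counted at a level of 20% or more, the 5 genes had 101 and 82 sites without and 90 and 92 with dTAG13, so that the difference went from 7.0 sites to -0.5 sites.

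The 5 genes differed among themselves. For Rax the untreated libraries listed 17 and 10 sites and the dTAG13 libraries 24 and 26. Lhx2 had 38 and 27 without and 49 and 42 with it. In both genes each dTAG13 library lay above each untreated library, as in 3.68% of the 7777 genes tested. Pax6 had 55 and 53 sites without and 39 and 44 with dTAG13, both below, as in 56% of those genes. In Six6 the counts were 49 and 47 against 38 and 52, and in Six3 they were 33 and 25 against 22 and 32, and both genes overlapped between the groups.

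The number of listed sites per gene was tested with edgeR's quasi-likelihood test on the site counts of all 7777 genes, without scaling to the library total. At an adjusted p under 0.05, 0% of genes passed, with 2322 genes at an unadjusted p under 0.05 by edgeR; DESeq2 also called 0 genes, with 1182 at an unadjusted p under 0.05. The median log2 change over all genes was -0.51. Rax had a log2 change of 0.88 ± 0.36 (SE; 2 libraries in either group, edgeR adjusted p 0.152), higher than in 99.5% of the genes tested. Lhx2 had 0.48 ± 0.25 (adjusted p 0.229), higher than in 97.5% of them. Both values moved with the untreated libraries: without untreated replicate 2 they were 0.55 and 0.26, and without untreated replicate 1 they were 1.31 and 0.75. Pax6, Six6 and Six3 had -0.38, -0.09 and -0.10, with adjusted p of 0.229, 0.799 and 0.836 in edgeR, and turned positive when counts were scaled to the library totals. Relative to the library totals, with TMM scaling, 1.43% of genes passed, and among them were Rax (log2 change 1.40, adjusted p 0.0319) and Lhx2 (1.01, adjusted p 0.0268). Scaling to the plain total of listed sites gave 1.36 (adjusted p 0.0421) for Rax and 0.97 (0.0392) for Lhx2. So 2 of the 5 members passed after scaling, which moves the median change of all genes from -0.51 to 0.01 with TMM, and none passed without it.

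**Figure D2:**
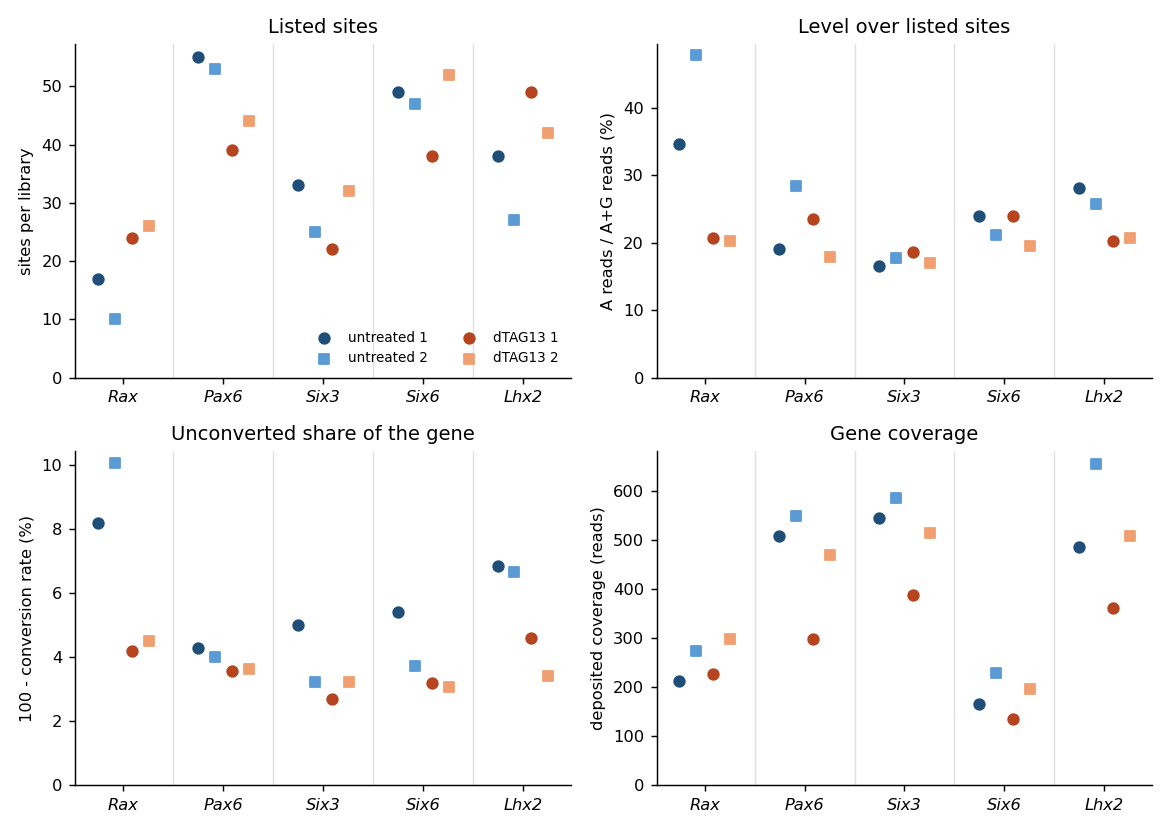
Values of each gene in the 4 libraries: listed sites, level over all listed sites, unconverted share of the gene (100% minus the conversion rate) and deposited gene coverage. Circles and squares are replicates 1 and 2, blue untreated and orange dTAG13. Rax shows more sites (24 and 26 against 17 and 10), a lower level and a lower unconverted share with dTAG13.

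Rax, needed from the start of eye formation, is given first. Its sites had a median level of 35.2% and 43.9% without dTAG13 and 18.3% and 16.8% with it, an order found in 10.9% of genes. Summed over all its listed sites, 1039 of 3002 and 2030 of 4243 reads were A without dTAG13, and 1384 of 6683 and 1574 of 7759 with it. These pooled levels of 34.6% and 47.8% lay above those of 20.7% and 20.3% with dTAG13. Such a separation, with both dTAG13 libraries below, was found in 13.8% of 12520 genes, and the opposite in 30.5%. In limma on log2 odds the Rax value was -1.43 ± 0.40 (SE; adjusted p 0.607). No gene passed in that fit (0% at an adjusted p under 0.05, 1007 at an unadjusted p under 0.05), and the median gene was at 0.22. The sites summed were not the same positions in each library, so this level mixes which sites were listed with how methylated they were.

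The added Rax sites lay at the low end of the range. At 10 to 20% Rax had 3 and 1 sites without dTAG13 and 13 and 16 with it. At 40% or more it had 8 and 7 sites without and 5 and 4 with dTAG13. Neither pair of groups overlapped, as in 5.08% of the 7777 genes for a higher number at 10 to 20% and in 29% for a lower number at 40% or more. The estimated level needed for listing also differed. It was taken from a binomial test with 150 reads and the deposited conversion rate of the gene. The unadjusted p was held to 0.004, the largest adjusted p listed, so the actual limits may be higher. For Rax the estimated limit was 15.3% and 18.0% in the untreated libraries and 10.0% in both dTAG13 libraries. For Lhx2 it was 13.3% in both untreated and 10.0% in both dTAG13 libraries. With fewer reads the estimated untreated limit of Rax was higher, at 20.7% for 92 reads in replicate 2 and 30.4% for 23 reads in replicate 1. A level of 20% lies above the limits for 150 reads but not above those for the fewest reads. At 20% or more, Rax had 14 and 9 sites without and 11 and 10 with dTAG13. These overlapped, and its edgeR log2 change became -0.13 (adjusted p 0.876). Lhx2 in contrast had 16 and 12 sites at 20% or more without and 24 and 24 with dTAG13, still without overlap (5.43% of genes), and a log2 change of 0.77. Pax6 had 26 and 29 without and 21 and 16 with it, a lower number as in 44% of genes.

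By position, the stretch of Rax nearest the 3′ end (chr18:66067770 to chr18:66068550) had pooled levels of 37.1% and 68.6% without and 21.5% and 20.5% with dTAG13, over 9, 6, 17 and 14 sites. The stretch nearest the 5′ end had 33.7% and 21.3% without and 18.6% and 20.04% with it. In both stretches the dTAG13 libraries lay below the untreated ones, and the gap was wider at the 3′ end. The highest untreated Rax site with at least 50 reads was chr18:66068018, at 98.5% (785 of 797 reads) in untreated replicate 2. It was followed there by chr18:66068259, at 79.8% (503 of 630 reads). Neither position was listed in another library. Without chr18:66068018, the Rax position with most A reads, the pooled level of untreated replicate 2 was 36.1% over the gene and 53.6% over the stretch, still above both dTAG13 libraries. In untreated replicate 1 the highest site with at least 50 reads was chr18:66071292, at 81.0% (68 of 84 reads). With dTAG13 the highest were chr18:66072140, at 100% (63 of 63 reads) in replicate 2, and chr18:66068112, at 40.5% and 63.8% in the 2 libraries. The position 3 bases on, chr18:66068115, had the same 119 A reads of 294 as chr18:66068112 in dTAG13 replicate 1. In dTAG13 replicate 2, chr18:66068112 and chr18:66068119 both had 113 A reads of 177. Of the 77 Rax sites counted over the 4 libraries, 6 (7.79%) had the same reads as the next listed site within 10 bases. Over all genes this share was 1.43%.

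Of the 10 Rax positions listed in 2 libraries, 5 were listed in 1 untreated and 1 dTAG13 library, and at all 5 the dTAG13 value was the lower one. Over the 5 genes together this held at 18 of 38 such positions, with Pax6 at 5 of 16, Six6 at 3 of 7, Six3 at 3 of 5 and Lhx2 at 2 of 5, and over all genes at 41.5% of 37019. At chr18:66071655 it was 66.9% of 166 reads in untreated replicate 1 and 23.5% of 149 reads in dTAG13 replicate 2. At chr18:66072024 it was 47.9% of 430 reads and 20.8% of 662 reads in the same libraries. At chr18:66068405 it was 45.7% of 267 reads in untreated replicate 2 and 12.6% of 87 reads in dTAG13 replicate 1. The remaining ones were chr18:66071631, from 41.3% to 13.0%, and chr18:66068518, from 43.5% of only 23 reads to 10.1%. The higher listing limit of Rax in the untreated libraries leaves low untreated values unlisted, and its part in this was not tested. No position of Rax was listed in 3 or 4 libraries, so no site of Rax could be tested.

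**Figure D3:**
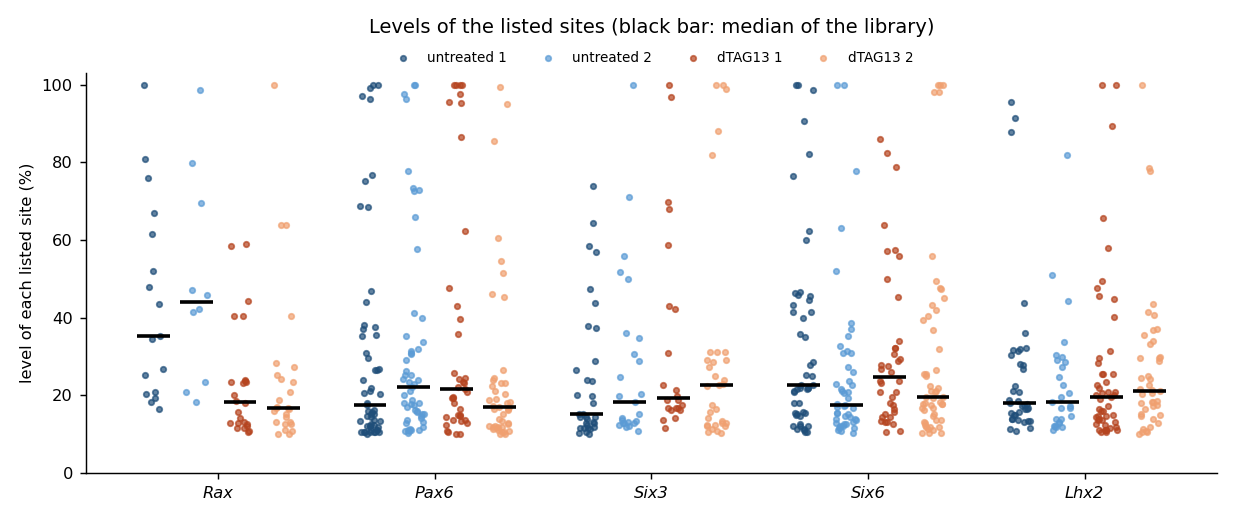
Level in percent of every listed site of the 5 genes, by library, with 1 point per site and a black bar at the median of the library. The medians of Rax are 35.2% and 43.9% without and 18.3% and 16.8% with dTAG13, those of Six3 and Lhx2 run the other way, and those of Pax6 and Six6 overlap between the groups.

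Lhx2 had the site with most A reads of any shared site of the 5 genes. At chr2:38259446, 284 bases before its last listed position, 87.8% of 1701 reads and 81.8% of 1797 reads were A in the untreated libraries. Neither dTAG13 library listed the position. Their nearest listed positions were 35 and 42 bases away, with 786 and 716 reads, where the estimated listing limit was 10.1% in both. The depth at chr2:38259446 itself is not given there. High sites were often listed in 1 library only, also within a group, so its level with dTAG13 is not known. Its stretch of 864 bases had pooled levels of 40.9% and 36.4% without and 18.2% and 22.3% with dTAG13. That gap rested on this 1 position: without it the untreated values were 18.2% and 19.01%. Over the whole gene the pooled level was 28.0% and 25.7% without and 20.2% and 20.7% with dTAG13, without overlap, as in 13.8% of genes. Here too the order rested on chr2:38259446, since without it the untreated values were 20.1% and 17.6%. The limma log2 odds change was -0.52 ± 0.26 (SE; limma adjusted p 0.660), and it turned to 0.15 when the position with most A reads of each gene was left out, an alternative chosen after seeing the data, and to 0.16 when site levels were averaged with equal weight. The median level of the Lhx2 sites ran the other way, from 17.9% and 18.2% to 19.5% and 21.2%, as in 29.8% of genes. Lhx2 sites at 40% or more numbered 4 and 3 without and 10 and 6 with dTAG13, as in 8.36% of genes.

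Further Lhx2 positions differed in either direction. At chr2:38244535 the level was 26.7% and 33.8% without dTAG13 (341 and 296 reads) and 11.4% of 236 reads in dTAG13 replicate 1, with no listing in replicate 2. At chr2:38244616 it was 95.6% of 90 reads in untreated replicate 1, and 17.2% of 122 reads and 20.6% of 63 reads with dTAG13; untreated replicate 2 did not list it. Between chr2:38241595 and chr2:38259730 the dTAG13 libraries in turn listed sites at 100%, of 86 reads in replicate 1 and 129 reads in replicate 2, that no other library listed. At chr2:38259631 the level was 44.2% of 86 reads in untreated replicate 2 and 43.5% of 230 reads in dTAG13 replicate 2.

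Six6 had the other position at a mean of 75% or more in the untreated pair. At chr12:72988978 the level was 90.6% of 395 reads and 77.9% of 524 reads without dTAG13, and the position was listed in neither dTAG13 library. The nearest positions listed there were 46 and 17 bases away, with 388 and 729 reads, where the estimated listing limit was 10.1% and 10.0%. The level at chr12:72988978 with dTAG13 is likewise not known. At chr12:72988577 the level was 28.5% and 35.1% without dTAG13 and was not listed with it. At chr12:72987284, in contrast, the dTAG13 libraries had 57.0% of 107 reads and 40.3% of 124 reads, and at chr12:72988932 they had 30.7% and 25.0%, with no untreated listing at either. The position chr12:72990868 was high in 1 library of each condition, at 60.0% of 70 reads in untreated replicate 1 and 78.8% of 66 reads in dTAG13 replicate 1. It was not listed in replicate 2 of either group. Over all its sites Six6 had 23.9% and 21.1% without and 24.0% and 19.5% with dTAG13, which overlapped (limma log2 odds change -0.07 ± 0.31, SE, n = 2 per group; adjusted p 0.942).

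Six3, the other gene of this family among the 5, had 4 positions within 22 bases that both untreated libraries listed. They were chr17:85931716 (47.4% and 34.6%), chr17:85931728 (15.2% and 14.1%), chr17:85931734 (15.1% and 28.9%) and chr17:85931737 (10.2% and 24.8%), with 254 to 606 reads. Of the 4, dTAG13 replicate 2 listed chr17:85931728, at 23.9% of 285 reads, and dTAG13 replicate 1 listed none. In replicate 1 the nearest listed positions were 119 to 130 bases away and had 24 or 116 reads, so the depth at this place is uncertain there. At chr17:85929050 the level was alike in 1 library of each condition, at 64.4%, or 199 A reads, in untreated replicate 1 and 58.7% of 264 reads in dTAG13 replicate 1. Replicate 2 of neither group listed that position. The deepest shared Six3 site, chr17:85932280, was near the listing limit at 10.6% of 2824 reads and 11.5% of 2261 reads in the same libraries. The median level of the Six3 sites was 15.1% and 18.2% without and 19.3% and 22.6% with dTAG13, higher without overlap, as in 29.8% of genes. Over all its sites Six3 had 16.5% and 17.7% without and 18.6% and 16.99% with dTAG13 (limma log2 odds change 0.07 ± 0.27, SE, n = 2 per group; adjusted p 0.934).

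Pax6 had the widest range of depth, from 16 to 4407 reads per site. Its deepest site, chr2:105527477, was at 12.1% of 3496 reads in untreated replicate 1 and 16.5% of 4407 reads in dTAG13 replicate 2. Both untreated libraries listed chr2:105526927 (13.3% of 1253 and 25.2% of 1575 reads), chr2:105527072 (10.5% of 1066 and 14.6% of 1256 reads) and chr2:105514230 (46.8% of 141 and 23.5% of 277 reads), and no dTAG13 library listed any of the 3. High levels occurred in both conditions. At chr2:105527610 the level was 73.3% of 330 reads in untreated replicate 2 and 100% of 124 reads in dTAG13 replicate 1, and at chr2:105527577 it was 11.1% and 100% in the same libraries, of 99 reads each. At chr2:105507021, in the stretch nearest the 5′ end, untreated replicate 1 had 99% of 300 reads. That stretch held 4 and 3 sites at 40% or more without and 0 and 1 with dTAG13, whereas the stretch nearest the 3′ end, with most positions, held 3 and 5 without and 8 and 3 with it. Pooled over the gene the level was 19.1% and 28.4% without and 23.4% and 17.9% with dTAG13 (limma log2 odds change -0.24 ± 0.43, SE, n = 2 per group; adjusted p 0.850). The groups overlapped, and so did the site medians of 17.4% and 22.01% against 21.7% and 17.1%.

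Few positions were listed more than once. Of the 630 positions, 549 (87.1%) appeared in a single library, 71 in 2, 9 in 3 and 1 in all 4. Over all genes 91.4% were listed in 1 library. The untreated pair shared 21 positions of the 5 genes and the dTAG13 pair shared 23, whereas over all genes these numbers were 25086 and 11156. Among the 5 genes the mixed pairs shared 13 to 16 positions. At a mean level of 75% or more the untreated pair shared 2 positions, those in Lhx2 and Six6 given above, and the dTAG13 pair shared 0. At a mean of 40 to 75% the untreated pair shared 2 and the dTAG13 pair 4. None of these 8 positions was listed in the other group, and over all genes this held for 85.8% of the sites that the untreated pair shared at 40% or more and for 78.3% of those of the dTAG13 pair. Of 20 records at 90% or more with at least 50 reads, 16 were listed once only (80.0%, against 86.0% over all genes). A site missing from a table was thus the usual case also within a group, and absence alone does not give its level.

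**Figure D4:**
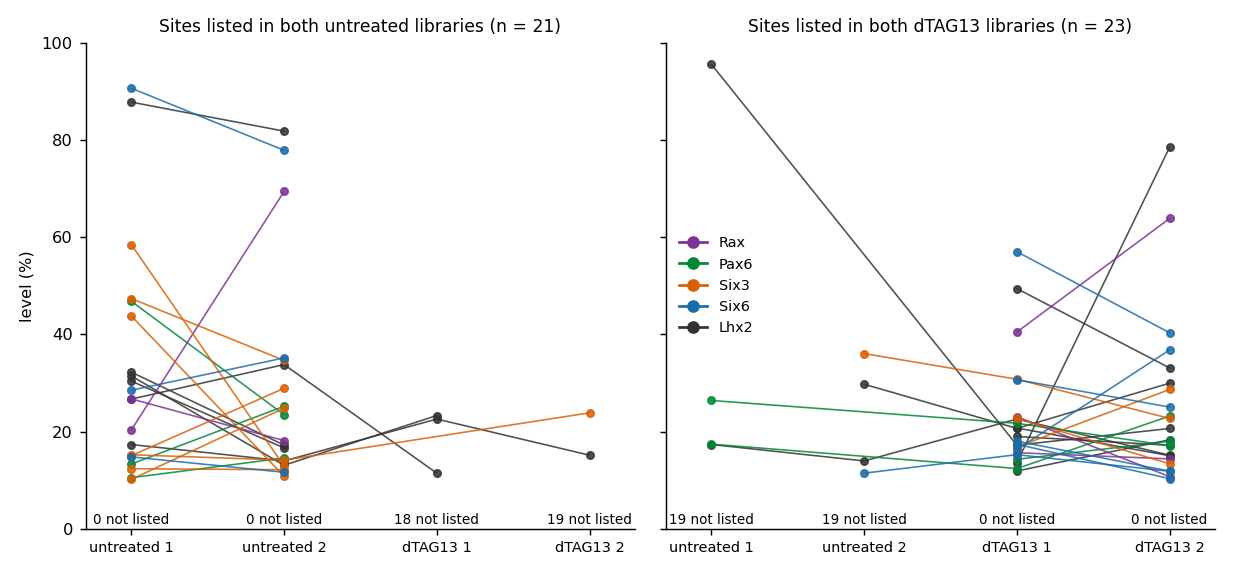
Levels in percent at the positions of the 5 genes listed in both untreated libraries (left, n = 21) or in both dTAG13 libraries (right, n = 23), with lines joining the libraries that list a position and the number of positions not listed at the foot. On the left, the 2 positions above 75% in both untreated libraries, in Six6 and Lhx2, have no dTAG13 value.

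Recovery, the share of one library's sites that another also lists, was taken over sites of 50 or more reads. Untreated replicate 1 had 174 such sites in the 5 genes, and its partner listed 12.1% of them (95% interval by Wilson's method 8.03 to 17.7%). Of the same sites, the first dTAG13 library listed 9.20% (5.74 to 14.4%) and the second 7.47% (4.42 to 12.4%). Of 150 sites of untreated replicate 2 the partner listed 14%, against 8.67% and 10.0% for the dTAG13 libraries. All these intervals overlapped, and they cover counting error only. The dTAG13 shares averaged 0.679 of the untreated share, against 0.557 over all genes. In the other direction 14.5% of 152 sites of dTAG13 replicate 1 were listed in the second dTAG13 library, against 10.5% and 7.24% in the untreated libraries. Over all genes the order was the opposite, with 7.48% against 8.47% and 8.40%. Of 179 sites of dTAG13 replicate 2 the first dTAG13 library listed 12.8%, against 8.94% and 8.38%, and over all genes 6.48% against 7.87% and 7.94%.

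Positions that every library listed, each time with 20 reads or more, could be tested directly. In a quasi-binomial fit whose dispersions were moderated by limma, 53 of 2321 such sites passed (2.28%), 51 lower (2.2%) and 2 higher (0.0862%) with dTAG13. The 5 genes had 1 tested site, chr2:38241524 in Lhx2, at 17.3% of 715 and 13.96% of 1361 reads without and 22.6% of 589 and 15.1% of 1017 reads with dTAG13. The groups overlapped, and the change of 3.21 percentage points did not pass (adjusted p 0.885). A fit that also took sites listed in 3 libraries, added after the data were seen, tested 10 sites of the 5 genes among 9092, and 0 of the 9092 passed, with 1072 at an unadjusted p under 0.05. In it chr2:38244616 changed by -76.6 points (adjusted p 0.189), with a single untreated library, and chr2:38244535 by -18.8 points (adjusted p 0.443).

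The conversion rate of a gene, the share of its A read as G, contains both the chemistry and the methylated A. The untreated libraries left 8.19% and 10.1% of Rax unconverted and the dTAG13 libraries 4.18% and 4.50%. For Lhx2 these shares were 6.83% and 6.65% against 4.59% and 3.41%. In Six6 it was 5.40% and 3.72% against 3.19% and 3.04%, in Six3 5.00% and 3.222% against 2.69% and 3.216%, and in Pax6 4.28% and 3.995% against 3.57% and 3.62%. The medians over 12520 genes were 4.15% and 3.78% without and 3.13% and 3.26% with dTAG13. In all 5 genes both dTAG13 libraries had a higher conversion rate than both untreated ones, as in 40.9% of genes, while the opposite order was found in 0 of the 5 and in 6.05% of genes. In Six3 untreated replicate 2 and dTAG13 replicate 2 were nearly equal.

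In limma on the log2 odds of conversion 0% of the 12520 genes passed, with 1540 at an unadjusted p under 0.05, and the median change was 0.30. The Rax value was 1.14 ± 0.28 (SE; adjusted p 0.369), larger than in 93.8% of genes. Lhx2 had 0.81 ± 0.30 (adjusted p 0.394). Six6, Six3 and Pax6 had 0.55, 0.47 and 0.21, with adjusted p from 0.516 to 0.758 in limma. Relative to the median gene of each library Pax6 went to -0.11 and the other 4 stayed positive. Whether the chemistry or the methylation moved the conversion rate of Rax and Lhx2 was not tested.

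Gene coverage, which the deposited tables give once per gene and library, was used as a measure of RNA. The untreated values were 486 and 656 for Lhx2, 545 and 587 for Six3, 508 and 549 for Pax6, 213 and 274 for Rax and 165 and 228 for Six6. Across the untreated libraries Lhx2, Six3 and Pax6 overlapped with one another, as did Rax and Six6. Within each untreated library Six3 lay above Pax6 and Rax above Six6, and the first 3 genes lay above the other 2. All 20 values were ratios of whole numbers, as a mean over positions would be, but how the authors defined coverage is not given in the sources used here. With dTAG13 the values were 361 and 508 for Lhx2, 388 and 515 for Six3, 298 and 469 for Pax6, 227 and 298 for Rax and 135 and 196 for Six6. Within either dTAG13 library the first 3 genes again lay above the other 2, Six3 above Pax6 and Rax above Six6.

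Set against the median gene of its library, coverage was lower in each dTAG13 library than in each untreated one for Lhx2, Six3 and Pax6 (29.2% of genes did this). For Rax it was higher (17% of genes), and Six6 overlapped. In limma on median-centred log2 coverage 0% of 12520 genes passed, with 1595 at an unadjusted p under 0.05. Pax6 had a log2 change of -0.42 ± 0.21 (SE; adjusted p 0.438), Lhx2 of -0.32 ± 0.22 (0.568), Six3 of -0.26 ± 0.20 (0.593), Six6 of -0.17 ± 0.23 (0.772) and Rax of 0.19 ± 0.21 (0.719). The signs of Lhx2 and Six3 turned under quantile normalization, to 0.01 and 0.08. Fewer cells with these RNAs and less RNA per cell cannot be told apart in bulk libraries. The genes with the most similar coverage profile to the mean of the 5, over 4 libraries, were Gm8326, Sec61a1 and Nup62, at Euclidean distances of 0.107, 0.114 and 0.118 on the log2 scale.

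A list of 30 partner genes of the eye field and optic vesicle was read beside the 5. In the test of listed sites 20 of them could be tested and 0 passed in either direction, with 5 at an unadjusted p under 0.05 in edgeR. Their median log2 change was -0.52, close to the -0.51 of all genes, against -0.09 for the 5 members. The lowest was Aldh1a3, a retinoic acid-synthesising enzyme, with 31 and 52 sites without and 7 and 5 with dTAG13 (log2 change -2.76, adjusted p 0.0870 in edgeR). Its gene coverage was lower too, at 98.7 and 93.9 without and 50.3 and 57.9 with dTAG13. The part of coverage in its site counts was not tested. Dach1, a nuclear cofactor in eye development, had 71 and 77 against 28 and 33 sites (-1.28, edgeR adjusted p 0.0870). The coverage of Dach1 overlapped between the groups, at 187 and 171 against 125 and 213. Hes1, a Notch target, had 10 and 18 against 32 and 19 sites. In gene coverage 26 of the 30 were tested and 0 passed, with a median log2 change of -0.11 against -0.26 for the 5 members and -0.07 for all genes. In the conversion rate 25 of 26 were above 0 and 0 passed, with a median of 0.67 against 0.55 for the 5 members. The median of all genes was also above 0, at 0.30. In the level over listed sites 0 of 26 passed, with 8 below 0, where 4 of the 5 members lay below 0. The member below 0 and nearest to it was Six6 at -0.07, and 33.0% of all genes lay below that value. The median of all genes was 0.22.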

How the data were processed

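The authors deposited 1 table of called sites per library, and replicates were not pooled. Per the file headers, the deposited counts are the A plus G reads and the A reads of a position, the deposited fraction is A over A plus G, a second deposited fraction gives each gene's conversion rate, and the coverage signal deposited by the authors has 1 value per gene. The deposited p-values were matched by a one-sided binomial test against the unconverted share within 6% at 686 of 707 member sites compared. Per the file names, second mates were used after trimming of adapters and molecular identifiers. Aligner, caller and duplicate handling are not given in the sources used here, so reads may not be independent molecules. The submitters' processing notes name the build mm10.

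The members and gene lists were chosen with earlier results of these data known, and the stretches and listing limits after the data were seen. Groups come from the sample titles. All fits ran over all genes or sites (R 4.3.3, edgeR 4.0.16, limma 3.58.1, DESeq2 1.42.0), with Benjamini-Hochberg adjustment and a threshold of 0.05. The main edgeR, quasi-binomial and limma fits were tested on simulated data, with changes larger than those of the members in these fits. The alternative fits, TMM scaling and DESeq2 among them, were not tested in this way. Site counts per gene were filtered with edgeR's filterByExpr (at least 10 sites). For the level, 0.5 was added to A and to G reads. Named sites were those listed in several libraries and, per gene and group, the highest with at least 50 reads. No genome of the build was used here, so the planned reading of sequence around sites was left out. Alternatives are in the closing section.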

Additional observations from a re-analysis of the deposited data

How the results depend on the processing

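Alternatives were run for each result. The number of genes called for listed sites was 0 and moved to 111 with TMM scaling, 99 with scaling to the total and 30 with sites of at least 50 reads. For site levels 53 sites passed, 531 in Fisher's exact test on summed reads, 0 with the replicate block, 0 with sites listed in 3 or 4 libraries, and 0 to 0 when 1 library at a time was dropped; fewer samples and residual degrees of freedom enter those fits, and a lone library is assumed to vary like the other group. Without centring 15 genes passed for coverage. Conversion rates and pooled levels gave 0 genes throughout, genes with coverage within 1.5-fold between libraries included; this and the fit on 3 or 4 libraries were chosen after seeing the data. DESeq2 gave no adjusted p for Rax. The labels give all libraries 1 batch and do not pair the replicate numbers, and the deviations of same-numbered libraries correlated at r = 0.002 in coverage over 12520 genes; the block changed no other call.

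Signs turned as follows, the cause was not tested, and no such value passed. With TMM scaling the log2 change in sites was 0.14 for Pax6, 0.41 for Six3 and 0.42 for Six6, and with scaling to the total 0.10, 0.38 and 0.39. With sites of 20% or more it was -0.13 for Rax and 0.17 for Six3. With site levels averaged, the level change was 0.16 for Lhx2 and 0.085 for Six6, and without the position with most A reads of each gene, also chosen after seeing the data, 0.15 and 0.16. With quantile normalization coverage changed by 0.015 for Lhx2 and 0.079 for Six3, and centred conversion by -0.11 for Pax6. Across fits that left out a library, sites ran from -0.40 to 0.14 for Six3 and -0.34 to 0.12 for Six6, the level from -0.62 to 0.13 for Pax6, -0.014 to 0.15 for Six3 and -0.26 to 0.12 for Six6, Six6 coverage from -0.37 to 0.037, and the Lhx2 site from -0.51 to 6.93 points. With the sign kept, coverage ran from -0.50 to -0.13 for Lhx2 and 0.038 to 0.34 for Rax, and conversion from 0.14 to 0.80 for Six3 and 0.27 to 0.83 for Six6, at the extremes without untreated replicate 1 or 2. The difference of 7.0 in summed sites was -0.5 at 20% or more, -1.5 at 50% or more, and -8 to 22 across fits without a library. The recovery ratio of 0.679 was 0.583 with 200 reads, 0.714 without a minimum, 0.583 at 50% or more and 0.713 within 2 bases.

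With 2 libraries per group and few sites listed in more than 1 library, the level of most sites could not be compared, and unlisted sites have no known level.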
